A study of Mus musculus with 5 samples.

Results

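The nuclear genes for the subunits of respiratory complexes II to V were examined in neonatal mouse hearts with and without the long noncoding RNA Charme. Members were the genes whose symbol is Sdha, Sdhb, Sdhc, Sdhd or Cyc1, or starts with Uqcr, Cox4, Cox5, Cox6, Cox7, Cox8 or Atp5, without pseudogene symbols containing -ps. Of the 49671 genes in the deposited count table, 49 fitted this rule, and 47 of them had at least 10 counts in at least 2 of the 5 pools and were among the 14880 genes tested. The 47 genes comprised 4 of complex II, 9 of complex III, 17 of complex IV and 17 of complex V. The 2 genes below the count minimum were Cox8c, with 0 counts in every pool, and Cox7b2, with 1 count in CharmeWT pool 3 and 0 elsewhere, both of which encode isoforms known from testis. Of the 47, 46 were protein-coding, and Cox6c2 is annotated as a processed pseudogene.

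The hearts came from C57BL6/J mice at postnatal day 2. CharmeWT hearts carried the intact locus and formed 3 pools of 9 hearts, and CharmeKO hearts carried a PolyA signal inserted in the Charme locus and formed 2 pools of 3 hearts. Polyadenylated RNA was sequenced from each pool, so every value is an average over the animals and the cell types of whole hearts, and the number of hearts in a pool cannot be told apart from the genotype. In such bulk RNA, fewer cells of a type and less RNA per cell cannot be told apart.

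The respiratory chain of the inner mitochondrial membrane passes electrons from NADH and succinate to oxygen. Complex II, succinate dehydrogenase, feeds electrons from the citric acid cycle into ubiquinone, complex III passes them to cytochrome c, and complex IV, cytochrome c oxidase, reduces oxygen. Complex V, the ATP synthase, uses the resulting proton gradient to make ATP. All subunits of complex II are encoded in the nucleus, while complexes III, IV and V combine nuclear subunits with a few from the mitochondrial genome. The heart is among the tissues richest in mitochondria, and around birth cardiac muscle turns from glycolysis towards fatty acid oxidation. Several subunits of complex IV exist as a form found mainly in heart and skeletal muscle and a form found in most tissues, often called the liver form.

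The 5 libraries held between 16721055 and 21646378 fragments on genes. Charme had 810, 183 and 276 counts in the CharmeWT pools and 57 and 79 in the CharmeKO pools, a log2 fold change of -2.49 ± 0.55 (SE, n = 3 and 2 pools; adjusted p = 0.0763). CharmeKO pool 1 stood apart from the other pools, with 21.1% of its counts on genes of the mitochondrial genome against 9.68% to 11.1% in the other 4 pools. The cardiomyocyte markers were abundant in every pool, with a summed level of 31678 to 40679 FPKM in CharmeWT pools and of 47074 and 37308 FPKM in CharmeKO pools 1 and 2. FPKM are fragments per kilobase of the principal transcript and of library size, scaled between pools by TMM. Markers of other tissues also differed between the genotypes. Markers of salivary gland summed to 0.0787 to 0.165 FPKM in CharmeWT pools and to 235 and 18061 FPKM in CharmeKO pools 1 and 2, and 5 of its 5 tested markers were called higher, with Bpifa2, Smgc and Prol1 at 0 counts in every CharmeWT pool. Of the brown and white adipose markers 5 of 7 were called higher (Ucp1, Plin1, Adipoq, Cidec and Adig), with Ucp1 at 2.29, 0 and 0 FPKM in CharmeWT pools and at 22.6 and 434 FPKM in CharmeKO pools 1 and 2. Of the skeletal muscle markers 3 of 11 were called higher (Mylpf, Myh8 and Tnnc2), but their summed level, most of it Ckm, was 1112 to 1426 FPKM in CharmeWT pools and 1560 and 1438 FPKM in CharmeKO pools. Of 6 erythroid markers, 3 were called higher (Hba-a1, Hba-a2 and Hbb-bt), with sums of 1328 to 1925 FPKM against 3517 and 2478 FPKM. No endothelial, fibroblast or macrophage marker was called.

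Most of these genes were among the most abundant messages of the heart. In CharmeWT pools 43 of the 47 had a mean level of at least 100 FPKM, which placed them in the top 3.38% of all genes tested, and together the members took between 3.42% and 3.95% of the counts of each pool. The other 4 were Cox4i2, Cox6b2, Atp5s and the pseudogene Cox6c2, with CharmeWT means between 8.42 and 16.0 FPKM. Atp5b, the catalytic beta subunit of ATP synthase, was the highest member, at 2969 ± 240 FPKM (SD, n = 3 CharmeWT pools). The plot of levels by pool shows that these values lay close together among the CharmeWT pools, and that CharmeWT pool 3 was the lowest of the 3 for 42 of the 47 genes. Whether the members differed between CharmeKO and CharmeWT hearts was then tested gene by gene.

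**Figure D1:**
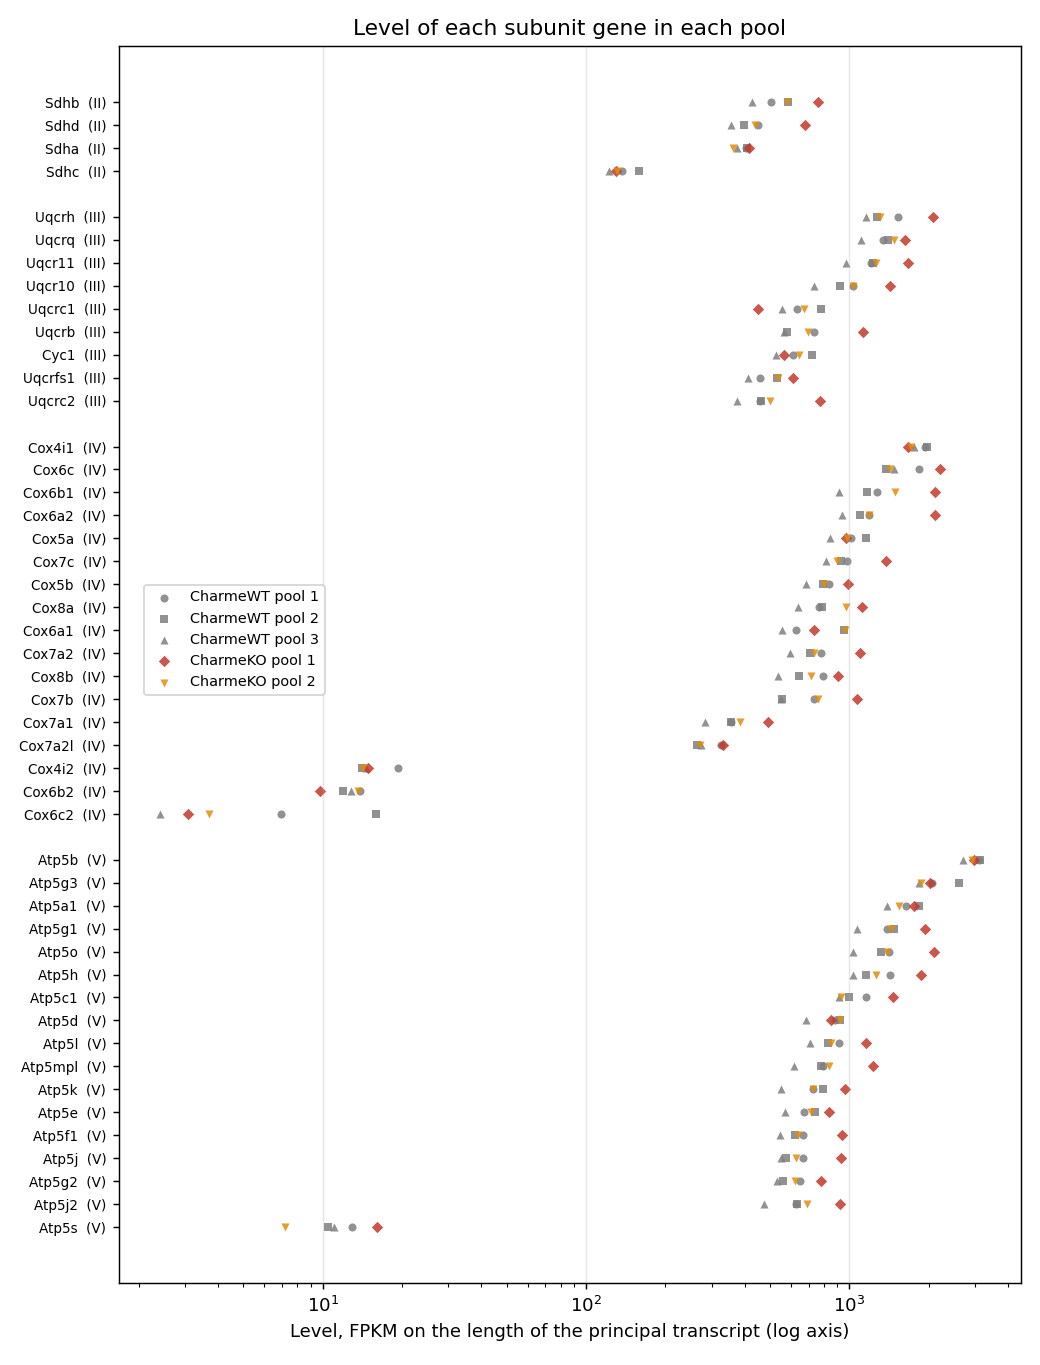
Level of each of the 47 subunit genes (rows, grouped by complex and ordered by the CharmeWT mean) in each pool, as FPKM on the length of the principal transcript on a log axis. Each point is 1 pool (grey, 3 CharmeWT pools; red and orange, CharmeKO pools 1 and 2), and CharmeKO pool 1 lay above the other 4 pools for 34 of the 47 genes.

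None of the 47 genes was called different between the genotypes, against 2.05% of all genes tested. Calls required an adjusted p under 0.1 in the quasi-likelihood test of edgeR and a mean of at least 1 FPKM in at least 1 genotype. The lowest adjusted p was 0.183, of Cox6b1. Unadjusted, 7 members had a p under 0.05, all 7 with higher CharmeKO values, which is 14.9% of the members against 10.6% of all genes in that direction, and 0 had lower values, against 8.01% of all genes. The fitted log2 fold changes, given as CharmeKO over CharmeWT throughout, were above 0 for 36 members and below 0 for 11, with a median of 0.29 beside 0.02 for all genes tested. Their standard errors were between 0.19 and 0.71 on the log2 scale, which is of the size of many of the differences. With the likelihood ratio test 1 member was called, Cox6b1, with an adjusted p of 0.0998, against 6.27% of all genes, and with DESeq2 the same gene alone was called, with an adjusted p of 0.0583, against 7.54%. Both CharmeKO pools lay above every CharmeWT pool for 12 members and below for 1, or 25.5% and 2.13% of the members, where 17.8% and 18.2% of all genes did so.

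**Figure D2:**
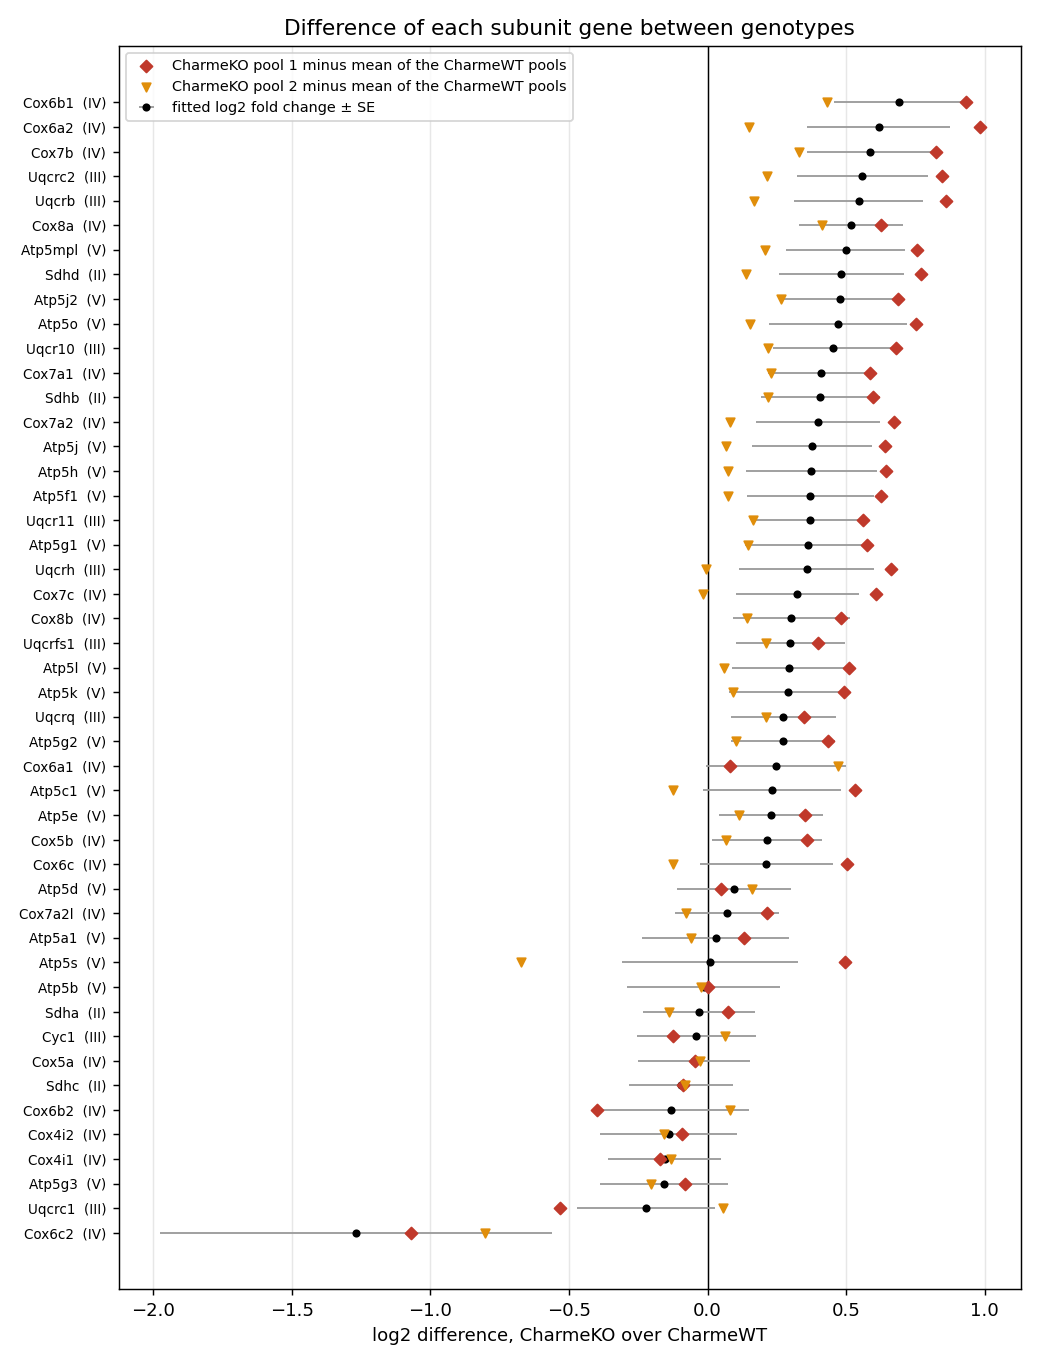
Log2 difference of each of the 47 subunit genes between CharmeKO and CharmeWT hearts, ordered by the fitted log2 fold change (black points, with 1 standard error on each side; 3 CharmeWT and 2 CharmeKO pools). Red diamonds and orange triangles give CharmeKO pools 1 and 2 against the mean of the CharmeWT pools, and pool 1 lay above pool 2 for 38 of the 47 genes.

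The CharmeKO pools did not show the same levels. CharmeKO pool 1 lay above every CharmeWT pool for 34 members, or 72.3%, where 39.1% of all genes did so, and below every CharmeWT pool for 3, where 38.6% of all genes did. Its median log2 difference from the CharmeWT mean was 0.50. This value depends on the scaling, as the TMM factor was 0.845 in CharmeKO pool 1 and 1.02 to 1.09 in the other pools. Before scaling, the members took 3.83% of the counts of CharmeKO pool 1 and 3.42% to 3.95% in CharmeWT pools. CharmeKO pool 2 lay above every CharmeWT pool for 13 members, or 27.7%, where 30.4% of all genes did so, and below for 3, where 29.9% did, and its median difference was 0.08. Among the CharmeWT pools the same median was 0.11, 0.07 and -0.20 in pools 1 to 3. The distance between the CharmeKO pools was thus larger than that between CharmeKO pool 2 and either of CharmeWT pools 1 and 2. Without CharmeKO pool 1 no member was called (4.33% of all genes were) and the median log2 fold change of the members was 0.08. Without CharmeKO pool 2 the number called was 23, all higher in the remaining CharmeKO pool, but 31.7% of all genes were then called and 16.1% were called higher. Their median log2 fold change was then 0.48. That fit compares 1 CharmeKO pool with 3 CharmeWT pools and takes the lone pool to vary as the others do. CharmeKO pool 1 was also the pool with 21.1% of its counts on the mitochondrial genome and with the highest sum of cardiomyocyte markers, and the part of either in the levels of the members was not tested.

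Complex II consists of the flavoprotein Sdha and the iron-sulfur protein Sdhb, which form the catalytic head, and of the membrane anchors Sdhc and Sdhd. Sdhb (chr4:140961203-140979193, GRCm38) had 505, 585 and 425 FPKM in CharmeWT pools 1 to 3 and 758 and 582 FPKM in CharmeKO pools 1 and 2. Sdhd (chr9:50596357-50603812) had 449, 399 and 355 FPKM in CharmeWT pools and 681 and 440 FPKM in CharmeKO pools. For both genes CharmeKO pool 1 was the highest of all, and CharmeKO pool 2 fell inside the range of the CharmeWT pools. Sdha (chr13:74322254-74350280) had 406, 409 and 375 FPKM in CharmeWT pools and 417 and 360 FPKM in CharmeKO pools. Sdhc (chr1:171127165-171150603), the least abundant subunit, had 137, 159 and 122 FPKM in CharmeWT pools and 130 and 131 FPKM in CharmeKO pools. These 2 genes overlapped between the genotypes. The fitted log2 fold changes were 0.41 ± 0.21 for Sdhb, 0.48 ± 0.23 for Sdhd, -0.03 ± 0.20 for Sdha and -0.09 ± 0.19 for Sdhc, and the lowest adjusted p among the 4 was 0.285. The level summed over the 4 genes was 1442 ± 146 FPKM (SD, n = 3) in CharmeWT pools, and 1986 and 1512 FPKM in CharmeKO pools 1 and 2.

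Complex III has as nuclear subunits the core proteins Uqcrc1 and Uqcrc2, the catalytic cytochrome c1 (Cyc1) and the Rieske iron-sulfur protein (Uqcrfs1), and small supernumerary proteins. The small hinge protein Uqcrh (chr4:116066965-116075071), which helps cytochrome c to bind, was the most abundant, with 1531, 1273 and 1159 FPKM in CharmeWT pools and 2078 and 1307 FPKM in CharmeKO pools. Uqcrq had 1341, 1404 and 1111 FPKM against 1627 and 1480 FPKM, and Uqcr11 had 1210, 1229 and 971 FPKM against 1668 and 1266 FPKM. For Uqcrq and Uqcr11, both small supernumerary subunits, each CharmeKO pool was above each CharmeWT pool, while for Uqcrh CharmeKO pool 2 was within their range. Adjusted p-values were between 0.361 and 0.453 for these 3 genes. The core proteins had values on both sides of 0. Uqcrc2 (chr7:120635176-120659524) had 459, 460 and 376 FPKM in CharmeWT pools and 772 and 499 FPKM in CharmeKO pools, a log2 fold change of 0.56 ± 0.24 with an adjusted p of 0.251. Uqcrc1 (chr9:108936633-108949623) had 635, 779 and 554 FPKM in CharmeWT pools and 450 and 675 FPKM in CharmeKO pools, a log2 fold change of -0.22 ± 0.25 with an adjusted p of 0.647. CharmeKO pool 1 was therefore the highest of the 5 pools for Uqcrc2 and the lowest for Uqcrc1. Uqcrb, a supernumerary subunit, had 735, 578 and 566 FPKM in CharmeWT pools and 1129 and 699 FPKM in CharmeKO pools, a log2 fold change of 0.54 ± 0.23 with an adjusted p of 0.256. CharmeKO pool 2 was below CharmeWT pool 1 for this gene. The small subunit Uqcr10 had 1032, 921 and 733 FPKM against 1421 and 1032 FPKM, with CharmeKO pool 2 above CharmeWT pool 1 by less than 1 FPKM. The catalytic subunits had log2 fold changes of -0.04 ± 0.21 for Cyc1 and 0.30 ± 0.20 for Uqcrfs1. Both CharmeKO pools were above every CharmeWT pool for 5 of the 9 genes of complex III, or 55.6%, where 17.8% of all genes did so. The shares were 0%, 29.4% and 11.8% for complexes II, IV and V. The summed level was 7438 ± 894 FPKM in CharmeWT pools, and 10319 and 8136 FPKM in CharmeKO pools 1 and 2.

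The nuclear subunits of complex IV surround a catalytic core that is encoded by the mitochondrial genome. Cox4i1 (chr8:120668222-120674207), the largest of them and the common form of subunit 4, had 1941, 1972 and 1754 FPKM in CharmeWT pools and 1675 and 1720 FPKM in CharmeKO pools. It was the only member with both CharmeKO pools below every CharmeWT pool, by a log2 fold change of -0.15 ± 0.20 with an adjusted p of 0.704. Of the pair that lies on the matrix side of the enzyme, Cox5a had 1018, 1160 and 848 FPKM in CharmeWT pools and 969 and 981 FPKM in CharmeKO pools. Cox5b, the other one, had 834, 791 and 686 FPKM against 985 and 803 FPKM. Neither separated the genotypes. Cox7c, a small membrane subunit, had 979, 930 and 812 FPKM against 1376 and 895 FPKM, with CharmeKO pool 1 alone above the CharmeWT range. Cox6c, also a small membrane subunit, had 1837, 1382 and 1481 FPKM against 2201 and 1428 FPKM, and its groups overlapped. Cox6b1 (chr7:30616861-30626151), which faces the intermembrane space where the enzyme forms dimers, had 1274, 1166 and 914 FPKM in CharmeWT pools and 2113 and 1494 FPKM in CharmeKO pools. Both CharmeKO pools were above all CharmeWT pools, by 0.93 and 0.43 on the log2 scale against the CharmeWT mean in pools 1 and 2. The fitted log2 fold change was 0.69 ± 0.23, the largest value among the members, with the lowest adjusted p of the edgeR test, 0.183. Cox7b (chrX:106015700-106022450), a small subunit, had 732, 554 and 548 FPKM in CharmeWT pools and 1072 and 762 FPKM in CharmeKO pools, a log2 fold change of 0.58 ± 0.23 with an adjusted p of 0.225. Its CharmeKO values were also above all CharmeWT values, with CharmeKO pool 2 just above CharmeWT pool 1. Cox7a2l is a relative of Cox7a that joins complex III and complex IV in supercomplexes, and C57BL/6 mice are known to carry a short form of its protein. It had 325, 264 and 273 FPKM against 332 and 271 FPKM, with overlapping groups (log2 fold change 0.07 ± 0.19). The testis-type gene Cox6b2 had 13.9, 11.9 and 12.8 FPKM against 9.75 and 13.6 FPKM, and made up 1.16 ± 0.20% (SD, n = 3) of the summed Cox6b level in CharmeWT pools. The pseudogene Cox6c2 had the lowest fitted log2 fold change, -1.27 ± 0.71 with an adjusted p of 0.359, from 33, 65 and 11 counts in CharmeWT pools and 10 and 19 counts in CharmeKO pools. The lowest CharmeWT count was between the CharmeKO counts, and its reads may be shared with Cox6c, so its value is uncertain. The summed level of complex IV genes was 12398 ± 1346 FPKM in CharmeWT pools, and 17222 and 13336 FPKM in CharmeKO pools 1 and 2.

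Heart and liver forms are found for subunits 6a, 7a and 8 of complex IV, and both forms were expressed in these neonatal hearts. The heart forms are Cox6a2, Cox7a1 and Cox8b, and the forms of most tissues are Cox6a1, Cox7a2 and Cox8a. RefSeq promoter sequences (GRCm38.p6, 250 bases before to 50 bases after a gene's start) matched 35 of the 47 members, for 32 of them at a start within 109 bases of that of the principal transcript and for Atp5j2, Atp5f1 and Atp5g2 farther away. The promoters of the pairs with both members in the table are shown, so that the heart form and the common form can be set side by side, together with that of Cox6b1, the member with the lowest p. They lie at chr7:30183921-30184220 on the plus strand (Cox7a1) and, on the minus strand, at chr9:79759804-79760103 (Cox7a2), chr7:140900397-140900696 (Cox8b), chr19:7217567-7217866 (Cox8a) and chr7:30626065-30626364 (Cox6b1). Each is written 5′ to 3′ along the gene, and capitals mark matches, on either strand, to any of 8 motifs. These were the TATA box written as TATAAA, the NRF1 motif written as CGCATGCG, the GABP motif written as CCGGAAG, the YY1 motif written as AAGATGGC, the half-site of the estrogen-related receptors written as AAGGTCA, the MEF2 motif written as TAAAAATA, a muscle-type E-box written as CAGCTG and the Sp1 motif written as GGGCGG. No motif contains another.
Cox7a1: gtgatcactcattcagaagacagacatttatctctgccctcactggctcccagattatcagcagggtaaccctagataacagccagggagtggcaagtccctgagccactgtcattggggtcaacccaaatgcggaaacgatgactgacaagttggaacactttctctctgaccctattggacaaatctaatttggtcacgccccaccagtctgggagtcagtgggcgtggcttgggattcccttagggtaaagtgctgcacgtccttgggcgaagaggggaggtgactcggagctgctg
Cox7a2: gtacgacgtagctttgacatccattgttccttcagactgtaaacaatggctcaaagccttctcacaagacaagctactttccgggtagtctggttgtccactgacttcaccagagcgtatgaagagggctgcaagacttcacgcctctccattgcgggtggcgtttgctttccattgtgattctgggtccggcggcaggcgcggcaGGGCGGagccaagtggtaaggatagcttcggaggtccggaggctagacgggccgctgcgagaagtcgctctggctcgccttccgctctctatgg
Cox8b: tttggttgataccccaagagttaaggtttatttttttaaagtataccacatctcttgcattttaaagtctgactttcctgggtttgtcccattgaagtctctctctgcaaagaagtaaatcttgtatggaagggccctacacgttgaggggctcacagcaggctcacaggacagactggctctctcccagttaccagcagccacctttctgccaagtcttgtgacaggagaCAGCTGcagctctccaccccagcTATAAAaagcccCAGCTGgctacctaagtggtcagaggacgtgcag
Cox8a: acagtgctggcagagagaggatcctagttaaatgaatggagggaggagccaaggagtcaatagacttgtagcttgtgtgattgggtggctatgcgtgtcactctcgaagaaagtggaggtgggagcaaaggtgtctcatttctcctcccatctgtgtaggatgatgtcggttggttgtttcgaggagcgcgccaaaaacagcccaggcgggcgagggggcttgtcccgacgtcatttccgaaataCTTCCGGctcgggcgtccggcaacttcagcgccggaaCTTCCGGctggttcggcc
Cox6b1: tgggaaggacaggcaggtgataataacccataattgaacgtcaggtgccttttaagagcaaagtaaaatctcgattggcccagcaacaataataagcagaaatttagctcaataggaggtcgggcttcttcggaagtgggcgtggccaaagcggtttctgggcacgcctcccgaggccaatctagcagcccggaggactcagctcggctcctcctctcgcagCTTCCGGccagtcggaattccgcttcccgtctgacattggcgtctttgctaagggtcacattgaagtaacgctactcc
The Cox8b promoter held a TATAAA and a pair of CAGCTG matches and none of the others. Its TATAAA and 1 CAGCTG lay after the annotated start, at 4 to 9 and 16 to 21 bases past it. Cox8a held a pair of CCGGAAG matches, read on the minus strand as CTTCCGG. Cox6b1 held 1 CCGGAAG, Cox7a2 held 1 GGGCGG, and the Cox7a1 window held no match to any of the 8 motifs. Over the 35 matched members CCGGAAG was found in 11, or 31.4%, against 8.86% of the 32851 promoters in the table, and CGCATGCG in 6, or 17.1%, against 1.87%. AAGGTCA was in 5, or 14.3%, against 4.72%, AAGATGGC in 2, or 5.71%, against 2.75%, and GGGCGG in 13, or 37.1%, against 35.7%. TATAAA was in 2 members, or 5.71%, against 13.6% of all promoters, CAGCTG in 2, or 5.71%, against 16.3%, and TAAAAATA in 0, against 2.72%. The factors named after CCGGAAG and CGCATGCG, GABP and NRF1, are known regulators of respiratory chain genes. Each matched member gave 1 promoter, while the comparison counts every promoter in the table. The median GC content was 56.3% for the promoters of the members and 52.7% for all. The part of this in the counts was not tested. These counts describe letters in the window and were not tested.

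The heart form Cox6a2 (chr7:128205435-128206387) had 1186, 1099 and 940 FPKM in CharmeWT pools and 2113 and 1188 FPKM in CharmeKO pools, a log2 fold change of 0.62 ± 0.26 with an adjusted p of 0.247. CharmeKO pool 2 was above CharmeWT pool 1 by less than 2 FPKM, and the difference between the genotypes rested on CharmeKO pool 1, without which the log2 fold change was 0.14. Its counterpart Cox6a1 (chr5:115345642-115348981) had 625, 958 and 556 FPKM in CharmeWT pools and 733 and 959 FPKM in CharmeKO pools. CharmeWT pool 2 and CharmeKO pool 2 were alike for this gene and higher than the other 3 pools. Cox6a2 made up 65.5%, 53.4% and 62.9% of the pair in CharmeWT pools and 74.2% and 55.3% in CharmeKO pools, so that the heart form was the larger share in each pool. The log2 ratio differed by 0.29 between the genotypes, with p = 0.7 in the exact two-sided permutation test over the 5 pools, which cannot go below p = 0.1. The test was run for 6 pairs, and the adjusted value was 0.9.

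For subunit 7a the common form was the more abundant. Cox7a1 (chr7:30184144-30186078) had 355, 355 and 282 FPKM in CharmeWT pools and 493 and 385 FPKM in CharmeKO pools, above each CharmeWT pool in both, with a log2 fold change of 0.41 ± 0.19 and an adjusted p of 0.282. Cox7a2 (chr9:79755361-79759878) had 778, 712 and 594 FPKM against 1102 and 731 FPKM, with a log2 fold change of 0.40 ± 0.22 and an adjusted p of 0.361. The log2 ratio of the pair differed by 0.03 between the genotypes. A correction for length and GC content within each pool gave fitted log2 fold changes of 0.39 for Cox7a1 and 0.04 for Cox7a2. The heart form was 32.3 ± 0.98% of the pair in CharmeWT pools (SD, n = 3) and 30.9% and 34.5% in CharmeKO pools, with p = 0.9 in the exact permutation test. Subunit 8 was close to an even mixture. Cox8b (chr7:140898945-140900446) had 796, 645 and 537 FPKM in CharmeWT pools and 909 and 718 FPKM in CharmeKO pools, and Cox8a (chr19:7215153-7217616) had 767, 784 and 638 FPKM against 1121 and 968 FPKM. CharmeKO pool 2 lay inside the CharmeWT range for Cox8b, and both CharmeKO pools were above it for Cox8a, whose log2 fold change was 0.52 ± 0.19 with an adjusted p of 0.201. The heart form was 50.9%, 45.1% and 45.7% of the pair in CharmeWT pools and 44.8% and 42.6% in CharmeKO pools. Both CharmeKO shares were below the CharmeWT shares, by 0.21 in the log2 ratio, but the exact permutation test gave p = 0.3 and an adjusted value of 0.6. Skeletal muscle and brown fat also express the heart forms. Their respective markers Mylpf and Ucp1 were highest in CharmeKO pool 2, at 18.5 and 434 FPKM. Of the 11 skeletal muscle markers tested, 3 were higher in CharmeKO pool 1 than in CharmeKO pool 2. The sum of the 11 was also higher there, at 1560 against 1438 FPKM. The part of these tissues in the values of the heart forms was not tested. In CharmeKO pool 2 the share of Cox6a2 was inside the range of the CharmeWT pools, that of Cox7a1 was above it and that of Cox8b was below it.

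Subunit 4 had almost no second form. Cox4i2, known from lung and from its response to low oxygen, had 19.2, 14.1 and 14.5 FPKM in CharmeWT pools and 14.8 and 14.2 FPKM in CharmeKO pools, or 0.84 ± 0.14% of the Cox4 total in CharmeWT pools (SD, n = 3) and 0.876% and 0.818% in CharmeKO pools. The exact permutation test of the log2 ratio gave p = 0.9.

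**Figure D3:**
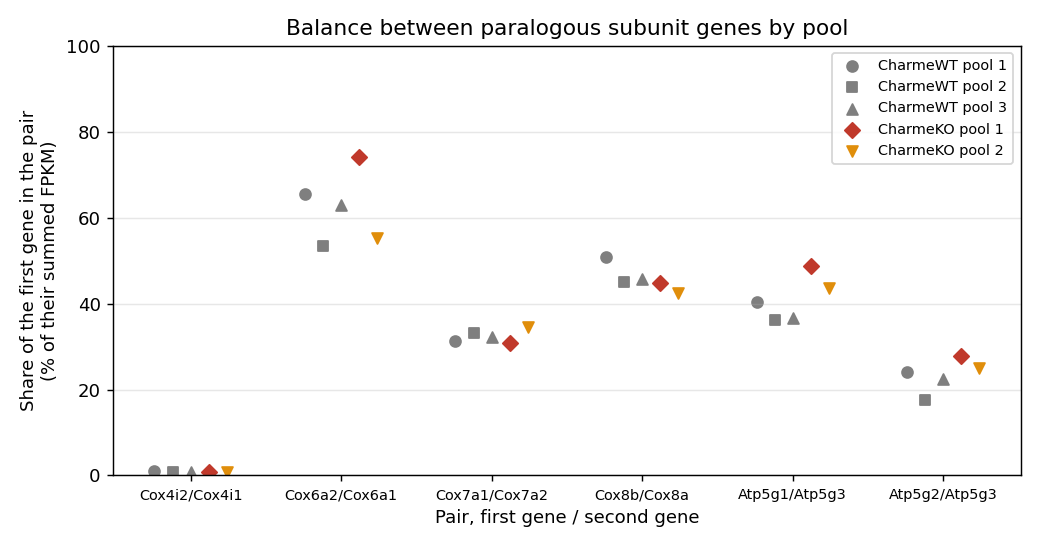
Share of the first gene of each pair in the summed FPKM of the pair, in percent, in each pool (grey, CharmeWT pools 1 to 3; red and orange, CharmeKO pools 1 and 2). Only the 2 pairs with Atp5g3 had both CharmeKO pools above all CharmeWT pools, and only Cox8b/Cox8a had both below. The 2 pairs share Atp5g3 and are not separate observations. The lowest adjusted p of the exact permutation test over the 6 pairs was 0.6.

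Complex V has a catalytic F1 head, of which Atp5a1, Atp5b, Atp5c1, Atp5d and Atp5e encode subunits, a membrane ring of c subunits and a stalk with accessory proteins. The head subunits that bind nucleotides had fitted values near 0. Atp5b (chr10:128083273-128090391) had 3094, 3120 and 2693 FPKM in CharmeWT pools and 2966 and 2913 FPKM in CharmeKO pools, with a log2 fold change of -0.01 ± 0.28, and Atp5a1 had 1634, 1835 and 1394 FPKM against 1764 and 1544 FPKM, with a log2 fold change of 0.03 ± 0.27. Both overlapped between the genotypes. The ring is built from 1 mature protein that the genes Atp5g1, Atp5g2 and Atp5g3 encode with different import sequences. Atp5g3 (chr2:73908447-73911326), the most abundant of the 3, had 2056, 2615 and 1842 FPKM in CharmeWT pools and 2030 and 1864 FPKM in CharmeKO pools. Atp5g1 (chr11:96068852-96075670) had 1395, 1484 and 1065 FPKM against 1940 and 1440 FPKM, and Atp5g2 (chr15:102662864-102672352) had 652, 559 and 533 FPKM against 783 and 622 FPKM. The log2 fold changes were -0.16 ± 0.23 for Atp5g3, 0.36 ± 0.23 for Atp5g1 and 0.27 ± 0.19 for Atp5g2, and none was past the threshold. Within a pool, Atp5g1 was 34.0%, 31.8% and 31.0% of the 3 genes together in CharmeWT pools and 40.8% and 36.7% in CharmeKO pools, while Atp5g3 was 50.1%, 56.1% and 53.5% against 42.7% and 47.5%. The log2 ratio of Atp5g1 to Atp5g3 was -0.56, -0.82 and -0.79 in CharmeWT pools and -0.07 and -0.37 in CharmeKO pools. The groups did not overlap, and p = 0.1 in the exact permutation test is the smallest that 3 against 2 pools allow (adjusted value 0.6 over the 6 pairs). For Atp5g2 to Atp5g3 the log2 ratio differed by 0.41, with p = 0.2 in the exact permutation test and an adjusted value of 0.6. It was 0.24 without CharmeWT pool 2. After the correction for length and GC content the fitted log2 fold changes were 0.29 for Atp5g1, 0.34 for Atp5g2 and -0.46 for Atp5g3. The lowest adjusted p of the quasi-likelihood test among them was then 0.355.

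The other 12 genes of the complex encode the remaining head subunits, the stalk and accessory proteins, and none was called. Their fitted log2 fold changes were above 0, from 0.01 for Atp5s, an assembly-related factor measured at 7.18 to 16.1 FPKM, to 0.50 for Atp5mpl, a small membrane subunit. The rotor subunit Atp5c1 had 1159, 994 and 910 FPKM in CharmeWT pools and 1469 and 931 FPKM in CharmeKO pools, and its neighbours Atp5d and Atp5e had 881, 919 and 685 FPKM against 850 and 918 FPKM, and 672, 742 and 571 FPKM against 839 and 713 FPKM. For Atp5d both CharmeKO pools were inside the CharmeWT range, and for the others CharmeKO pool 2 was. The peripheral stalk, which holds the head against the turning rotor, is formed by Atp5o, Atp5f1, Atp5h and Atp5j. Atp5o, which caps the head, had 1420, 1321 and 1036 FPKM against 2102 and 1387 FPKM, with a log2 fold change of 0.47 ± 0.25. Atp5f1, Atp5h and Atp5j had log2 fold changes of 0.37 ± 0.23, 0.37 ± 0.24 and 0.38 ± 0.22. For these 4 stalk genes CharmeKO pool 1 was above every CharmeWT pool and CharmeKO pool 2 was within their range. Atp5mpl had 793, 783 and 617 FPKM in CharmeWT pools and 1226 and 839 FPKM in CharmeKO pools, and Atp5j2 had 628, 632 and 473 FPKM against 922 and 688 FPKM. These 2 were the only genes of complex V with both CharmeKO pools above every CharmeWT pool, or 11.8% of the complex beside 17.8% of all genes. Their adjusted p-values were 0.256 and 0.274. The summed level of complex V was 17669 ± 2121 FPKM in CharmeWT pools, and 22761 and 17965 FPKM in CharmeKO pools 1 and 2.

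Complex I, the largest of the chain, gave values like those of the members. Of 36 nuclear subunits of complex I tested none was called, and 32 had a log2 fold change above 0, with a median of 0.32. The median difference from the CharmeWT mean was 0.50 in CharmeKO pool 1 and 0.07 in CharmeKO pool 2, beside 0.50 and 0.08 for complexes II to V. Ndufb9 and Ndufa11, among its most abundant genes, had log2 fold changes of 0.20 ± 0.21 and 0.40 ± 0.22. With DESeq2 1 of the 36, Ndufv3, was called (log2 fold change 0.59 ± 0.20, adjusted p = 0.0992), against 7.54% of all genes. The 6 tested genes of the mitochondrial genome that belong to complexes III to V had no call and a median of -0.09, which was -1.01 without CharmeKO pool 1 and -0.95 after the correction for length and GC content. Among them mt-Co1, the catalytic subunit of complex IV, had 25544, 25160 and 24647 FPKM in CharmeWT pools and 55947 and 19810 FPKM in CharmeKO pools, and mt-Cytb, the cytochrome b of complex III, had 17142, 13890 and 15302 FPKM against 30540 and 16083 FPKM. CharmeKO pool 1 was high for both, and CharmeKO pool 2 was below the CharmeWT range for mt-Co1 and inside it for mt-Cytb. The log2 fold change of mt-Co2 was -0.74 ± 0.45. The 7 mitochondrial genes of complex I had a median of 0.58 with 0 called. That median was -0.069 without CharmeKO pool 1, where mt-Nd3 was called lower (adjusted p = 0.0898), and -0.21 after the correction for length and GC content. The likelihood ratio test called mt-Nd2 (adjusted p = 0.0652), and DESeq2 called mt-Nd2 and mt-Nd1 (adjusted p = 0.022 and 0.0947). Over all genes the likelihood ratio test called 6.27%, DESeq2 7.54% and the fit without CharmeKO pool 1 4.33%. The genes mt-Nd1, mt-Nd2 and mt-Nd4 were highest in CharmeKO pool 1 as well, at 54705, 23634 and 11384 FPKM against at most 24413, 7109 and 7066 FPKM in a CharmeWT pool.

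**Figure D4:**
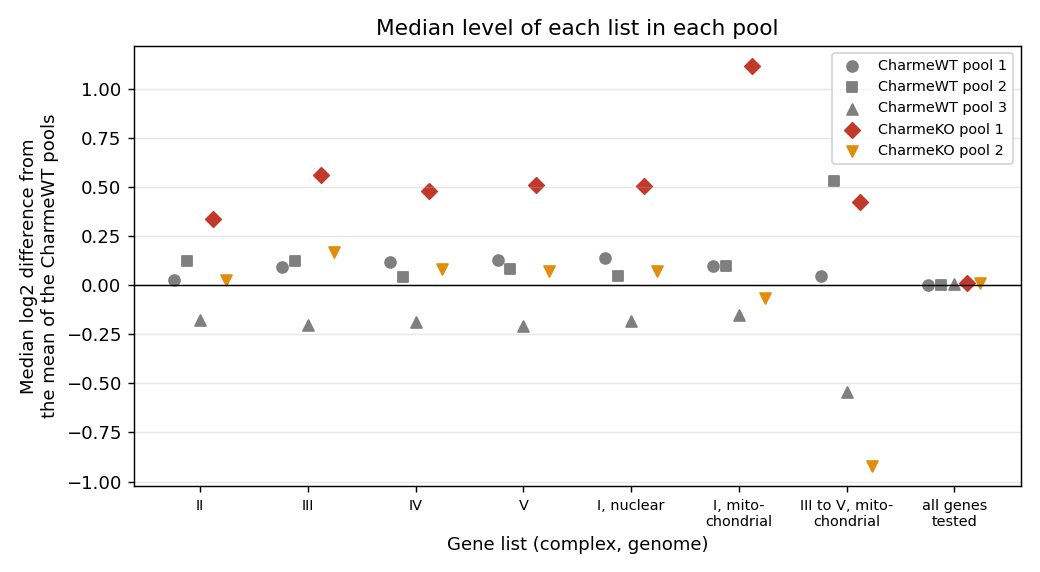
Median log2 difference from the mean of the CharmeWT pools over the genes of each list, in each pool (grey, CharmeWT pools 1 to 3; red and orange, CharmeKO pools 1 and 2). The nuclear genes of complexes I to V had medians of 0.33 to 0.56 in CharmeKO pool 1 and of 0.03 to 0.17 in CharmeKO pool 2, with all genes tested at 0.01 in both.

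Factors that assemble or regulate these complexes gave no call in the quasi-likelihood test. The medians were 0.17 for 4 assembly factors of complex II, 0.05 for 6 of complex III, 0.13 for 23 of complex IV and 0.32 for 3 of complex V. Their most abundant genes had log2 fold changes of 0.18 ± 0.24, 0.16 ± 0.18 and -0.16 ± 0.21 (Sdhaf4, Sdhaf2 and Sdhaf1), 0.31 ± 0.19, 0.00 ± 0.19 and 0.09 ± 0.22 (Uqcc2, Uqcc3 and Uqcc1), and 0.55 ± 0.23, -0.06 ± 0.19 and 0.19 ± 0.19 (Cox20, Cox14 and Coa3). Among the 3 assembly factors of the ATP synthase, Atpaf2 had 15.5, 17.2 and 14.3 FPKM in CharmeWT pools and 21.2 and 27.4 FPKM in CharmeKO pools, so that CharmeKO pool 2 was the higher of the 2, unlike for most subunits. Its log2 fold change was 0.63 ± 0.20 with an adjusted p of 0.158. It was called with the likelihood ratio test (adjusted p = 0.0871), with DESeq2 (adjusted p = 0.0768) and in the quasi-likelihood test without CharmeKO pool 1 (adjusted p = 0.0318), where Cox18 of the complex IV factors was called as well (adjusted p = 0.0567). Over all genes these fits called 6.27%, 7.54% and 4.33%, in the same order. The log2 fold changes of Tmem70 and Atpaf1 were 0.32 ± 0.19 and 0.23 ± 0.18. Cytochrome c, the ATP synthase inhibitor and 4 further proteins of the complexes had a median of 0.44, with 0.35 ± 0.22 for Usmg5, 0.43 ± 0.22 for Ndufa4 and 0.45 ± 0.24 for the inhibitor Atpif1. The 17 regulators of mitochondrial biogenesis had a median of -0.07, and both CharmeKO pools lay below every CharmeWT pool for 3 of them, or 17.6%, beside 18.2% of all genes, and above for 1. The receptor Esrra, which drives respiratory genes in heart, had 67.0, 69.7 and 73.7 FPKM in CharmeWT pools and 47.6 and 54.8 FPKM in CharmeKO pools, and its coregulator Perm1 had 27.0, 32.4 and 26.3 FPKM against 16.9 and 25.3 FPKM. These receptor and coregulator genes were both below the CharmeWT pools in each CharmeKO pool, with adjusted p-values of 0.214 and 0.301, and Gabpa, the DNA-binding subunit of GABP, had a log2 fold change of 0.14 ± 0.20. The coactivator Ppargc1a, a main driver of mitochondrial biogenesis, had 13.7, 12.2 and 15.5 FPKM in CharmeWT pools and 33.7 and 13.4 FPKM in CharmeKO pools, a log2 fold change of 0.77 ± 0.32 with an adjusted p of 0.243. CharmeKO pool 2 was inside the CharmeWT range, and without CharmeKO pool 1 the log2 fold change was -0.042.

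The differences of the members varied with transcript length. The median log2 fold change was 0.32 for the 31 protein-coding members with a principal transcript under 1000 bases, and 0.07 for the 15 with one of 1000 bases or more. All 866 protein-coding genes tested with a transcript under 1000 bases had a median of 0.30, and the 12558 longer ones of 0.00. In CharmeKO pool 1 the short genes lay above the CharmeWT mean by a median of 0.56 among the members and 0.43 among all protein-coding genes. In the same pool the 15 longer members were above it by a median of 0.40, where all longer protein-coding genes had a median of -0.03. In CharmeKO pool 2 the medians were 0.11 and 0.05 for the shorter and the longer members, and 0.18 and -0.01 for all such genes. Across the 46 protein-coding members the rank correlation of the difference with length was -0.19 in CharmeKO pool 1 and -0.34 in CharmeKO pool 2. It was -0.29, 0.11 and 0.26 in CharmeWT pools 1 to 3, so that CharmeKO pool 2 had the largest value. With the length of all exons together it was -0.29 and -0.43 in CharmeKO pools 1 and 2, and -0.32, 0.17 and 0.15 in CharmeWT pools. The correlation is a description over genes measured in the same libraries. The correction for length and GC content used the length of all exons of a gene together, not that of the principal transcript. These lengths differ for many members, as for Atp5l with 6443 and 544 bases. After this correction the median log2 fold change of the members was 0.10, beside -0.03 for all genes, and 31 members were above 0. The medians were then 0.06, 0.10, 0.04 and 0.16 for complexes II, III, IV and V. Above 0 were then 2 of 4 genes of complex II, 7 of 9 of complex III, 10 of 17 of complex IV and 12 of 17 of complex V. No member was called (2.39% of all genes were), and the lowest adjusted p was 0.192, of Cox8a, with a corrected log2 fold change of 0.58, while Cox7b went from 0.58 to 0.03 and Uqcrb from 0.54 to -0.09. Leaving out the mitochondrial genome and the markers of skeletal muscle, adipose tissue and salivary gland, an alternative chosen after seeing the data, also gave 0 calls and a median of 0.29.

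**Figure D5:**
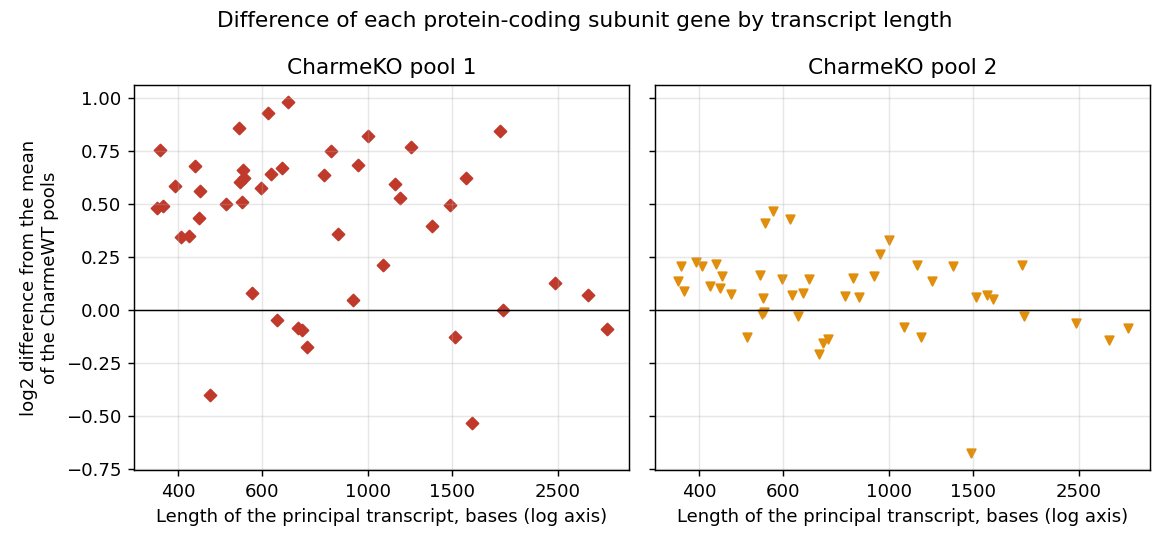
Log2 difference of each of the 46 protein-coding subunit genes from the mean of the CharmeWT pools (vertical axis) against the length of its principal transcript in bases (log axis), for CharmeKO pool 1 (left) and CharmeKO pool 2 (right). The highest point was Cox6a2 at 0.98 in pool 1 and Cox6a1 at 0.47 in pool 2, both with a transcript under 1000 bases, and the rank correlation was -0.19 and -0.34.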

How the data were processed

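Hearts of each genotype were pooled by the authors before RNA extraction, and stranded libraries of polyadenylated RNA were sequenced as paired-end reads. The authors trimmed the reads with Cutadapt and Trimmomatic, and STAR served for alignment to GRCm38 and for counting on the reverse strand of each gene of an Ensembl annotation. The deposited values used here are these raw counts per gene and pool. This counting keeps uniquely mapped fragments, so genes with near-identical processed copies are uncertain. A deposited FPKM table was not used.

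After a minimum of 10 counts in 2 or more pools, genes were normalized by TMM and tested with the quasi-likelihood test of edgeR 4.0.16 (R 4.3.3) for genotype, with Benjamini-Hochberg adjustment over the 14880 genes. Apart from the test, thresholds follow the study's methods, which name the likelihood ratio test. Standard errors are the log2 fold change over the square root of F. FPKM between genes use the length of the principal transcript of GENCODE M21 (best APPRIS and support level, then shortest). The minimum of 1 FPKM and the correction for length and GC content used exon-union lengths. Isoform ratios were compared by exact two-sided permutation over the 5 pools. The fit was tested on simulated data. With no molecular identifiers and no statement that pools are separate litters, p-values measure the spread between these pools only.

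Members, gene lists, motifs and pairs were chosen with earlier results of these data known. Genes were named by rule: every isoform pair, complex II, the most abundant, lowest p and extreme fold changes of the members, and of each list those called and the 3 most abundant, of which 1 is not reported here. Others with values (Cyc1, Uqcrfs1, Uqcr10, Cox5a, Cox5b, Cox7c, Ndufv3, Cox18, Ppargc1a and the further complex V genes) were named after their values were seen. As alternatives, results were recomputed with the likelihood ratio test, DESeq2 1.42.0, other quasi-likelihood forms, normalizations, filters and thresholds. Further ones were a per-pool correction for transcript GC and exon-union length (splines, 4 degrees of freedom), the replicate block and each pool left out. Values after the length and GC correction come from the fits, apart from the Cox6a2/Cox6a1 and Cox7a1/Cox7a2 ratios and the summed level of complex V. Other summed levels and isoform ratios are not given after it.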

Additional observations from a re-analysis of the deposited data

How the results depend on the processing

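No member was called in 12 of 14 alternatives that kept all pools, and 1 member, Cox6b1, was called with the likelihood ratio test and 1 with DESeq2. With a pool left out the number called ranged from 0 to 23, and 23 was reached only without CharmeKO pool 2. The median log2 fold change of the members was 0.19 with the replicate block and 0.016 with the block and the length and GC correction. It was 0.12 without the TMM factors, and no alternative with all pools made it negative. Without these factors the summed level of complex V differed by 0.035 (log2), beside 0.20 with them. Replicate numbers pair no samples by the labels, and same-numbered pools correlated at 0.14 and 0.08 in their deviations from the group means. The deviations of the 2 CharmeKO pools mirror each other, so the opposite pairings gave -0.14 and -0.08. These correlations therefore cannot decide whether the pools are paired. The block changed no call of a member and lowered the calls over all genes from 305 to 210. Signs changed only for values not called with all pools. After the length and GC correction the Cox6a2/Cox6a1 ratio was computed as -0.10 and the summed level of complex V as -0.041 (log2). The fits after this correction gave 0.52 for Cox6a2 and 0.32 for Cox6a1, so they did not share the ratio's change of sign. For complex V these fits had a median of 0.16, with 12 of 17 genes above 0. The Cox7a1/Cox7a2 ratio was computed as 0.63, while the fits gave 0.39 for Cox7a1 and 0.04 for Cox7a2. The correction may have been applied repeatedly in the computed ratios and summed levels. Their changes of sign are therefore not taken as results. Cox7a2l was -0.16 after the correction and -0.15 with the block added, and Cox7a2 was -0.0058 with both. Atp5b was 0.016 with upper-quartile normalization. Atp5a1 was -0.0011 without the count minimum, -0.069 with the block and -0.058 with both. With each pool left out in turn, ratios ranged from -0.086 to 0.15 (Cox4i2/Cox4i1), -0.32 to 0.90 (Cox6a2/Cox6a1) and -0.089 to 0.15 (Cox7a1/Cox7a2). Log2 fold changes ranged from -0.22 to 0.019 for Cox4i2, -0.41 to 0.076 for Cox6b2, -0.083 to 0.20 for Cox7a2l, -0.14 to 0.065 for Sdha, -0.18 to 0.012 for Sdhc, -0.015 to 0.65 for Uqcrh, -0.13 to 0.48 for Cox6c, -0.080 to 0.023 for Atp5b, -0.069 to 0.13 for Atp5a1 and -0.55 to 0.042 for Uqcrc1. The cause of these other changes of sign was not tested. Over all genes the 305 calls became 933 (likelihood ratio test), 1122 (DESeq2), 111 (adjusted p under 0.05), 130 (block with length and GC correction), 2, 187 and 0 (without CharmeWT pools 1, 2 and 3), and 639 and 4607 (without CharmeKO pools 1 and 2). Where 0 to 2 genes were called in all, 0 calls among the members say nothing of stability. Standard errors of 0.19 to 0.71 limit which differences could pass.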
